A study of Mus musculus with 38 samples.

Results

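The genes described here are the aryl hydrocarbon receptor gene Ahr, its partner Arnt, 2 genes of proteins that restrain the receptor (Ahrr and Tiparp) and 3 cytochrome P450 genes that the receptor is known to induce (Cyp1a1, Cyp1a2 and Cyp1b1). They were chosen by symbol, with earlier results of these data known, so counts of them are a description. Every probe set of the array that the platform annotation gives to 1 of these 7 genes alone was taken, whatever its values. That gave 16 probe sets of the 45101 on the array, or 7 of 18194 named genes. All 7 genes had at least 1 probe set, and all 16 probe sets entered the tests, since no filter on low values was applied.

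The samples were livers of outbred CD-1 mice, all male and 6 to 8 weeks old, with 1 array per animal and 38 arrays in 10 groups. In the conazole experiment mice received control feed, propiconazole at 2500 ppm or triadimefon at 1800 ppm in the feed for 4 or 30 days, with 3 mice in each of the 6 groups (the labels write "tridimefon"). In the phenobarbital experiment mice received control feed or phenobarbital at 850 ppm for 4 or 30 days, with 5 mice in each of the 4 groups. The labels give mean daily intakes of 349.6 ± 46.7 mg/kg for propiconazole, 257.1 ± 33.5 mg/kg for triadimefon and 97.2 ± 5.9 mg/kg for phenobarbital, so doses were not matched. Propiconazole and triadimefon are triazole fungicides, and phenobarbital is a barbiturate that activates CAR, another receptor of foreign compounds, in rodent liver. The labels call the samples biological replicates and name no genotype, transgene or shared pretreatment. Each experiment had controls of its own, so a batch of arrays cannot be told apart from an experiment.

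AHR is a transcription factor held in the cytoplasm by HSP90 chaperones until a ligand, such as a dioxin or a planar aromatic compound, binds it. It then enters the nucleus, pairs with ARNT and binds DNA at dioxin response elements in front of its target genes. Cyp1a1, Cyp1a2 and Cyp1b1 encode enzymes that oxidise aromatic compounds, and Ahrr and Tiparp are induced as feedback: AHRR competes with AHR for ARNT, and TIPARP attaches ADP-ribose to AHR. In liver, Cyp1a2 is made without an inducer, chiefly in hepatocytes around the central veins, while Cyp1a1 is known as a gene that is nearly silent until the receptor is activated.

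The core of the dioxin response element is GCGTG, or CACGC when read on the other strand. The RefSeq promoter table (build GRCm38.p6) held 6 of the 7 genes, and the 250 bases before each start were searched on both strands. Cyp1a1 and Cyp1a2 are shown because they are neighbours on chromosome 9 with 0 annotated genes between them, lie on opposite strands. Ahrr is shown because its window held the most cores of the 6. The cores are in capitals, and each window is written 5′ to 3′ on the gene's own strand.

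Cyp1a1, chr9:57697363-57697612, plus strand: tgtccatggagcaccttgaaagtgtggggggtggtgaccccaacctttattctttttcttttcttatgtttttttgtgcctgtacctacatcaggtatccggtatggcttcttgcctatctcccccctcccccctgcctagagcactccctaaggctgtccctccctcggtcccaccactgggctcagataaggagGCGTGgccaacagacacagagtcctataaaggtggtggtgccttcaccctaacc

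Cyp1a2, chr9:57683656-57683905, minus strand: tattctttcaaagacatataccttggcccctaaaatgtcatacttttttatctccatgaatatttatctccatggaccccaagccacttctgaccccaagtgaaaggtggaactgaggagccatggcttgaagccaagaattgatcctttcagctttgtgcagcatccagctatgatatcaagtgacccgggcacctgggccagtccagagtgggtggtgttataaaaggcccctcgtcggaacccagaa

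Ahrr, chr13:74292332-74292581, minus strand: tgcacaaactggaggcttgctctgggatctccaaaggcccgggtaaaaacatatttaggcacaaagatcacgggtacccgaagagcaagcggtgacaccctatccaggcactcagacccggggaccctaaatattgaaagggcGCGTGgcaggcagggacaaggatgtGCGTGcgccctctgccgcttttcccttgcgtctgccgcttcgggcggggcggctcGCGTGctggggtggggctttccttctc

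The Cyp1a1 window held 1 core, 54 bases before the start. The Ahrr window held 3 cores, 107, 82 and 27 bases before the start. The Cyp1a2 window held 0, which says only that these letters are not in this window. Of the windows not printed, Arnt held 1 core on its own strand, 29 bases before the start, while Cyp1b1 and Tiparp each held 1 on the other strand, 76 and 170 bases before it. At least 1 core was present in 28.2% of the 32851 promoters of the table and at least 3 in 2.8%, so 5 of these 6 genes had a motif that is common in such windows. GCGTG is also 1 form of the core that hypoxia-inducible factors bind with ARNT, and a match is no evidence of binding.

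Values below are log2(intensity + 16) after quantile normalisation, with a lowest possible value of 4. A change is the mean of treated arrays minus that of the controls of the same experiment and day, with its standard error, and it understates the change of a dim gene. Every adjusted p is from limma, fitted over all arrays and probe sets and adjusted by Benjamini-Hochberg, and a change is called at an adjusted p under 0.05. Background was set at 6.08, which 95% of 44 probe sets of olfactory receptors, genes silent in liver, did not exceed in their mean, and 16973 probe sets had a mean above it. A gene with several probe sets is described first by the brightest of them. Levels of different members were not compared, since probe sets differ in how brightly they read.

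Ahr was the member that rose in all 6 comparisons with controls, by 1.59-fold to 2.69-fold. Arnt rose in 1 of 6, propiconazole on day 30. Cyp1a2 rose with phenobarbital on both days. Ahrr and Cyp1b1 were below background on nearly all arrays and Cyp1a1 was close to it. Cyp1a1, Cyp1b1 and Tiparp passed the test in none of the 6 comparisons. The plot of changes for the 7 genes sets the receptor beside its target genes.

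**Figure D1:**
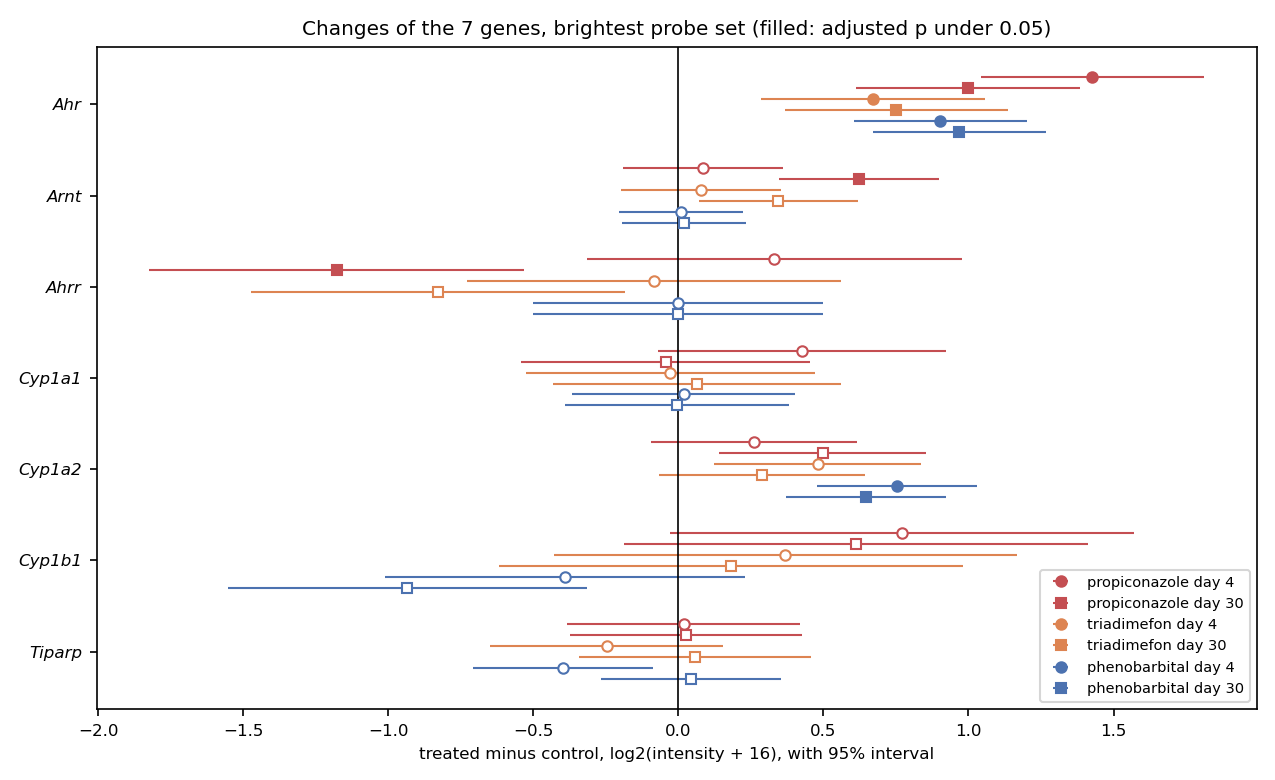
Change of each gene's brightest probe set in each of the 6 comparisons with same-day controls (x axis, difference of means of log2(intensity + 16), with bars for the 95% interval; 3 mice per conazole group and 5 per phenobarbital group). Circles are day 4, squares day 30, and filled symbols passed an adjusted p of 0.05. All 6 Ahr points lie right of 0 and are filled, while the Cyp1a1 and Tiparp points are all open. The filled Ahrr point is a difference between groups that were both below background.

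As a background to these counts, propiconazole called 10.8% of the 43173 probe sets tested on day 4, where 1 of the 7 genes (Ahr) was called, and 7.81% on day 30, where 3 were called (Ahr and Arnt higher, Ahrr lower). Triadimefon called 2.94% on day 4 and 3.56% on day 30, and 1 gene of the 7, Ahr, was called on each day. Phenobarbital called 0.447% on day 4 and 0.324% on day 30, and 2 of the 7 genes, Ahr and Cyp1a2, were called on each day. The median change of the 7 genes was 0.33 for propiconazole on day 4 and 0.50 on day 30, 0.08 and 0.18 for triadimefon, and 0.01 and 0.02 for phenobarbital. The median over all probe sets was 0.01 for propiconazole on day 4 and 0 in the other 5 comparisons.

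Ahr, the receptor itself, was well above background on all 38 arrays with probe set 1422631_at. On day 4 the conazole controls had 8.64, 8.40 and 8.23, the propiconazole arrays 9.61, 10.30 and 9.64 and the triadimefon arrays 9.54, 9.23 and 8.52. All 3 propiconazole arrays lay above every control, while 1 triadimefon array fell within the control range. The change was 1.43 ± 0.19 with propiconazole, or 2.69-fold (limma adjusted p = 1.9e-05), and 0.67 ± 0.19 with triadimefon, or 1.59-fold (limma adjusted p = 0.046).

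On day 30 the Ahr values were 8.99, 8.77 and 8.85 in conazole controls, 9.59, 10.03 and 9.98 with propiconazole and 9.48, 9.75 and 9.63 with triadimefon. Neither treated group overlapped the controls. Ahr was higher by 0.997 ± 0.19 with propiconazole, or 2.0-fold (limma adjusted p = 9.6e-04), and by 0.75 ± 0.19 with triadimefon, or 1.68-fold (limma adjusted p = 0.021).

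With phenobarbital, Ahr read 9.22, 9.36, 9.11, 9.03 and 8.85 on day 4, against 8.15, 8.27, 8.48, 8.05 and 8.11 in its controls. On day 30 the treated arrays had 8.94, 8.79, 9.08, 8.90 and 8.86, against 7.94, 7.97, 8.00, 8.17 and 7.64. On both days every treated array exceeded every control array. The rise was 0.90 ± 0.15 on day 4, or 1.87-fold (limma adjusted p = 8.0e-04), and 0.97 ± 0.15 on day 30, or 1.96-fold (limma adjusted p = 3.6e-04). Over all probe sets tested, groups did not overlap for 14.1% with propiconazole on day 4 and 20.7% on day 30, for 16.8% and 17.7% with triadimefon, and for 4.13% and 3.15% with phenobarbital.

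**Figure D2:**
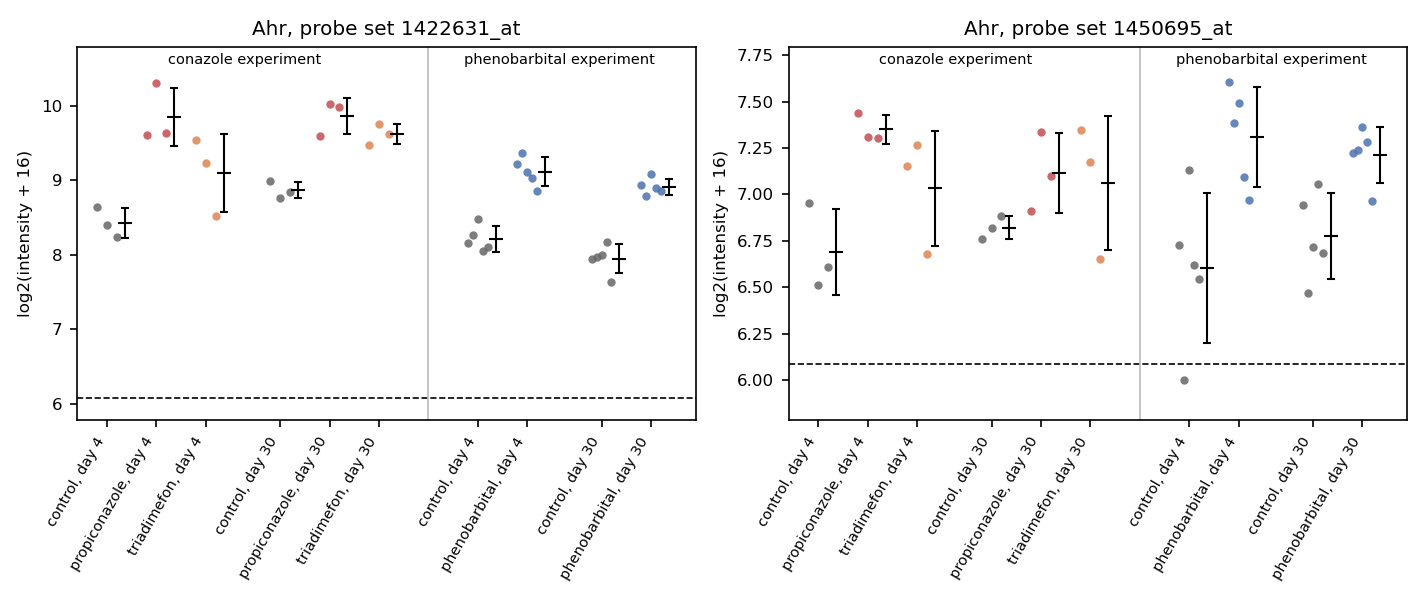
Ahr on each of the 38 arrays by 2 probe sets (y axis, log2(intensity + 16); x axis, the 10 groups, 3 mice per conazole group and 5 per phenobarbital group). Points are arrays, black bars the mean ± SD and the dashed line the background of 6.08. With probe set 1422631_at the phenobarbital arrays on both days lie above all their controls and triadimefon day 4 replicate 3, at 8.52, lies among the controls. With probe set 1450695_at the groups overlap more.

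The second Ahr probe set, 1450695_at, was dimmer and gave smaller differences in the same direction in all 6 comparisons. Its rise passed the test for propiconazole on day 4 (0.66 ± 0.21, limma adjusted p = 0.043) and phenobarbital on day 4 (0.71 ± 0.17, limma adjusted p = 0.042). Its other 4 differences, between 0.24 and 0.44, did not pass. Its phenobarbital controls on day 4 spread from 6.00 to 7.13, against 6.97 to 7.61 in the treated mice.

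How firm the Ahr calls were differed between the experiments. Each fit estimated 1 spread from all arrays, and conazole arrays varied more than phenobarbital arrays. With a spread from the arrays of the same experiment only, the phenobarbital rises had limma adjusted p = 6.9e-05 on day 4 and 3.2e-05 on day 30, and the propiconazole rise on day 4 had 0.013. With that spread the propiconazole rise on day 30 (limma adjusted p = 0.062) and the triadimefon rises on day 4 (limma adjusted p = 0.35) and day 30 (limma adjusted p = 0.28) no longer passed, and the standard error of a conazole change of Ahr became 0.24. The triadimefon calls were also lost when arrays were scaled by the median (limma adjusted p = 0.084 and 0.054) and when any 1 of 4 arrays on each day was left out: on day 4 control replicate 2 or 3 or treated replicate 1 or 2, and on day 30 control replicate 2 or 3 or treated replicate 2 or 3. From only the 6 arrays compared, the propiconazole rise on day 4 had a limma adjusted p of 0.30.

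One array stood apart. Propiconazole day 4 replicate 2 had the lowest deposited median (12.5), and its Gapdh signal was 6.39 log2 units higher at the 3′ than at the 5′ end, against -0.37 to 0.22 on the others. The mean correlation of an array with the rest of its group was 0.79 for this array. It was 0.85 and 0.86 for the other arrays of that group, whose means include this array. In the other groups it was 0.95 or more. The Actb signal was higher at the 3′ than at the 5′ end by 0.62 to 1.84 on the 9 conazole arrays of day 4, controls included, against 0.28 to 0.47 on the other 29. This sign of RNA quality moves with day in the conazole experiment, and its part in the conazole results by day was not tested. Replicate 2 of propiconazole on day 4 held the highest Ahr value of all 38, 10.30, and without it the propiconazole rise on day 4 was 1.20 (limma adjusted p = 0.00026).

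The 2 conazoles were compared directly on each day, at unequal doses. On day 4 Ahr was higher with propiconazole than with triadimefon by 0.76 ± 0.19 (95% interval 0.37 to 1.14, limma adjusted p = 0.038), in a comparison that called 1.48% of all probe sets, and it was the only 1 of the 7 genes called. Without propiconazole day 4 replicate 2 the difference was 0.53 (limma adjusted p = 0.23), and without triadimefon day 4 replicate 3, the lowest treated array, it was 0.47 (limma adjusted p = 0.19). It was also lost without triadimefon day 4 replicate 2 (0.82, limma adjusted p = 0.051). Of 11 other settings 4 lost it: the values as deposited (0.19, limma adjusted p = 0.52), array weights (0.53, limma adjusted p = 0.98), the spread of the same experiment (limma adjusted p = 0.52) and only the arrays compared (limma adjusted p = 0.92). On day 30 the difference was 0.25 (95% interval -0.14 to 0.63, limma adjusted p = 0.61), where 3.14% of probe sets and 0 of the 7 genes were called.

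The Ahr changes by day and by compound were tested as differences of changes. Day 30 minus day 4 gave -0.43 for propiconazole (95% interval -0.98 to 0.12), 0.08 for triadimefon (-0.46 to 0.63) and 0.06 for phenobarbital (-0.36 to 0.49). The propiconazole change exceeded the phenobarbital change by 0.52 on day 4 (95% interval 0.04 to 1.01, limma adjusted p = 0.27) and by 0.03 on day 30 (-0.46 to 0.52). The triadimefon change minus the phenobarbital change was -0.23 on day 4 (-0.72 to 0.26) and -0.22 on day 30 (-0.70 to 0.27). None of these 7 differences for Ahr passed the test.

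The same was found for the other members in these 7 comparisons and in untreated liver on day 30 minus day 4: 0 of the 16 probe sets passed in any of the 9. These comparisons called 1.62%, 0.959% and 0.00463% of probe sets for the day 30 minus day 4 change of propiconazole, triadimefon and phenobarbital. They called 1.32% and 1.44% for propiconazole minus phenobarbital on day 4 and day 30, 0.206% and 0.354% for triadimefon minus phenobarbital, and 4.85% and 0.00232% for untreated liver of the conazole and the phenobarbital experiment. At an unadjusted limma p under 0.05 the 9 comparisons, in that order, held 2, 0, 1, 4, 4, 0, 2, 3 and 1 of the 16 probe sets. For untreated liver, day cannot be told apart from age, cage or the day the arrays were hybridised. In untreated liver Ahr was higher on day 30 than on day 4 by 0.45 in the conazole experiment (limma adjusted p = 0.19) and had a difference of -0.27 in the phenobarbital experiment (limma adjusted p = 1).

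The levels of Ahr across the 10 groups ran from 7.95 ± 0.19 (SD, n = 5) in phenobarbital controls on day 30 to 9.86 ± 0.24 (SD, n = 3) with propiconazole on day 30. In between came phenobarbital controls on day 4 at 8.21, conazole controls on day 4 at 8.42 and on day 30 at 8.87, phenobarbital on day 30 at 8.91, triadimefon on day 4 at 9.09, phenobarbital on day 4 at 9.12, triadimefon on day 30 at 9.62 and propiconazole on day 4 at 9.85. From conazole controls on day 30 to phenobarbital on day 4, each group differed from the next by less than the larger of their SDs, and so did triadimefon on day 30, propiconazole on day 4 and propiconazole on day 30. An order across the 2 experiments holds treatment and experiment together.

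Arnt encodes the partner that AHR shares with the hypoxia-inducible factors. Its brightest probe set, 1437042_at, was above background on all arrays. On day 30 it read 8.02, 8.32 and 8.30 in conazole controls, 8.70, 8.92 and 8.89 with propiconazole and 8.43, 8.51 and 8.74 with triadimefon. Both treated groups lay above every control, while groups did not overlap for 20.7% of all probe sets with propiconazole and 17.7% with triadimefon that day.

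The Arnt rise with propiconazole on day 30 was 0.62 ± 0.13, or 1.54-fold (limma adjusted p = 0.0034). With the spread of the same experiment it did not pass (limma adjusted p = 0.093). Triadimefon on day 30 gave 0.34 ± 0.13 (limma adjusted p = 0.17). On day 4 the differences were 0.08 for propiconazole and 0.08 for triadimefon, and phenobarbital gave 0.01 on day 4 and 0.02 on day 30, each with a limma adjusted p of 0.78 or above. The phenobarbital intervals of this probe set, -0.20 to 0.22 and -0.19 to 0.23, leave out changes of the size of the Ahr rise.

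Other Arnt probe sets did not all show the rise. With propiconazole on day 30, 1421721_a_at gave 0.21, 1425064_at gave 0.16 and 1449696_at gave 0.41, none called. The remaining one, 1419996_s_at, gave a difference of -2.31 ± 0.73 (limma adjusted p = 0.047), the opposite direction. Its propiconazole arrays on day 30 read 7.0, 4.0 and 4.0, against 6.96, 7.15 and 7.83 in controls. So 2 arrays were at the lowest possible value and the other was within the control range, and replicate 1 of triadimefon on each day also read 4.0. With phenobarbital on day 4, 1419996_s_at read 6.58 to 6.86, against 7.03 to 7.30 in controls. On day 30 it read 6.63 to 7.10, against 6.98 to 7.56. The dim 1449696_at was higher with phenobarbital on day 30, at 5.32 to 5.40 against 4.94 to 5.29, all below background. None of these phenobarbital differences was called. The probe set 1419996_s_at is the one with 4.0 readings. The suffix of 1419996_s_at marks probes that can match more than 1 transcript.

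**Figure D3:**
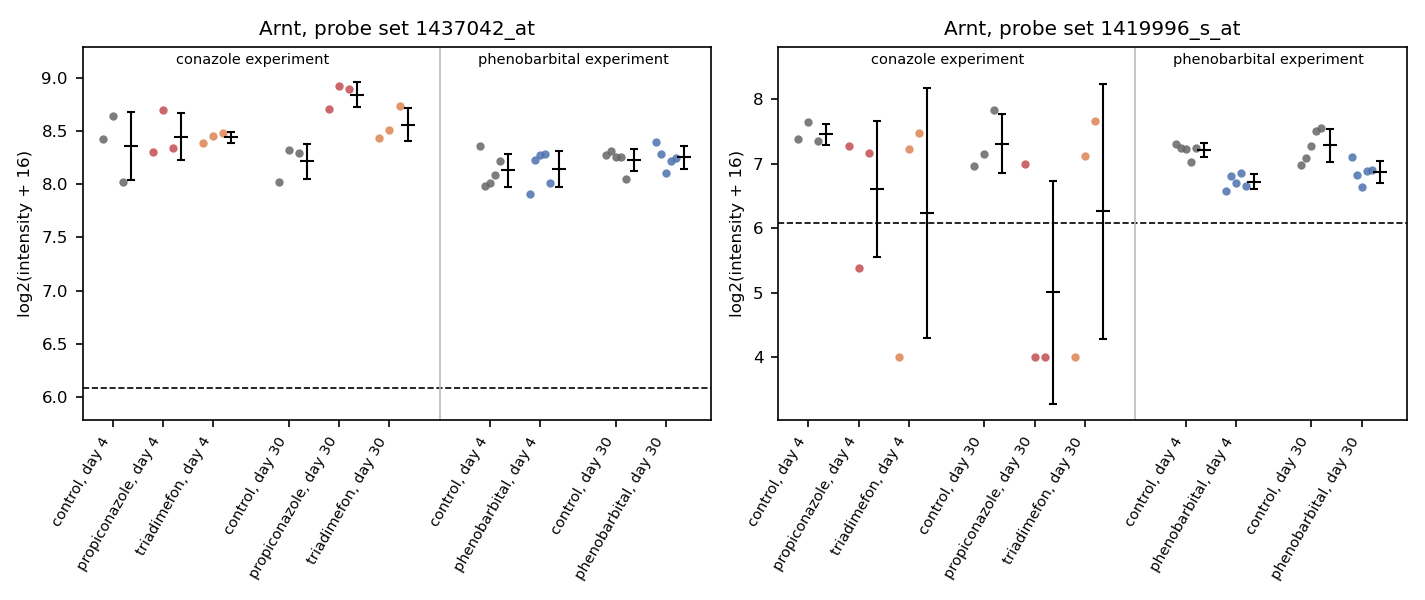
Arnt on each of the 38 arrays by its brightest probe set and by the one that moved the other way (y axis, log2(intensity + 16); x axis, the 10 groups, 3 mice per conazole group and 5 per phenobarbital group). Points are arrays, black bars the mean ± SD and the dashed line the background of 6.08. With 1437042_at the 3 propiconazole arrays on day 30 lie above all controls of that day, and with 1419996_s_at 4 conazole arrays lie at 4.00.

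Ahrr encodes the receptor's repressor and is itself a target of it. Its probe set, 1420796_at, was below background on all 38 arrays and at the lowest possible value of 4.00 on all 20 arrays of the phenobarbital experiment. In the conazole experiment the controls on day 30 read 4.35, 5.59 and 5.60 and the 3 propiconazole arrays 4.00 each. That difference, -1.18 ± 0.32, passed the test (limma adjusted p = 0.018) between groups that are both below background, so no fold is given. It was lost without control replicate 2 (limma adjusted p = 0.098) or replicate 3 (limma adjusted p = 0.11) and with the spread of the same experiment (limma adjusted p = 0.27). The other 5 comparisons gave no call, with differences from -0.83 to 0.33.

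Tiparp encodes the ADP-ribosylating enzyme that acts on AHR, and its transcript is known to respond quickly to AHR ligands. Its brightest probe set, 1426721_s_at, was above background on all arrays. On day 4 its phenobarbital arrays read 6.68, 6.89, 6.59, 6.89 and 6.83, against 7.15, 7.53, 7.24, 7.0 and 6.95 in controls. All 5 treated arrays were below all 5 controls, where 4.13% of all probe sets had groups that did not overlap.

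That Tiparp difference was -0.40 ± 0.15 (95% interval -0.71 to -0.09, limma adjusted p = 0.38) and did not pass the test. With array weights it passed, at -0.38 (limma adjusted p = 0.035). On day 30 phenobarbital gave 0.04 ± 0.15. Propiconazole gave 0.02 on day 4 and 0.03 on day 30 with 95% intervals of -0.38 to 0.42 and -0.37 to 0.43. Triadimefon gave -0.25 (-0.65 to 0.15) and 0.06 (-0.34 to 0.46). The other 2 Tiparp probe sets, 1452161_at and 1452160_at, were called in none of the 6 comparisons, with differences from -0.69 to 0.22.

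Cyp1a2 encodes the P450 enzyme of caffeine and aromatic amine oxidation, and its probe set, 1450715_at, was above background on all arrays. On day 4 the phenobarbital arrays read 12.98, 12.87, 13.02, 12.80 and 12.94, against 11.88, 12.05, 12.37, 12.38 and 12.17 in controls. On day 30 they read 12.83, 13.02, 12.88, 13.03 and 12.93, against 12.11, 12.18, 12.56, 12.45 and 12.15. Treated arrays lay above all controls on both days, and spread less than the controls. Groups did not overlap for 4.13% of all probe sets on day 4 and 3.15% on day 30.

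Cyp1a2 rose with phenobarbital by 0.75 ± 0.14 on day 4, or 1.68-fold (limma adjusted p = 0.0033), and by 0.65 ± 0.14 on day 30, or 1.57-fold (limma adjusted p = 0.021). The day 4 rise passed with each array left out in turn. The day 30 rise was lost in 6 of 11 such fits: without control replicate 1, 2 or 5 or treated replicate 2, 4 or 5 (limma adjusted p up to 0.075, differences from 0.60 to 0.65 in those 6). With the spread of the same experiment its limma adjusted p was 0.0014.

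With the conazoles, Cyp1a2 differences were positive and smaller, and none passed in the main fit. Propiconazole on day 30 passed when dim probe sets were filtered out (limma adjusted p = 0.047). On day 4 the controls read 12.78, 12.29 and 12.57, propiconazole 13.28, 12.20 and 12.94 and triadimefon 13.04, 13.21 and 12.83. Replicate 2 of propiconazole, the array that stood apart, was below all 3 controls and the other 2 above them. On day 30 the controls read 12.79, 12.40 and 12.55, propiconazole 13.14, 13.12 and 12.97 and triadimefon 12.74, 13.05 and 12.81.

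The Cyp1a2 differences were 0.26 ± 0.17 (limma adjusted p = 0.37) and 0.50 ± 0.17 (limma adjusted p = 0.077) for propiconazole on day 4 and day 30, and 0.48 ± 0.17 (limma adjusted p = 0.14) and 0.29 ± 0.17 (limma adjusted p = 0.45) for triadimefon. Without propiconazole day 4 replicate 2 in any fit, 3 of these passed: propiconazole on day 4 at 0.56 (limma adjusted p = 0.021), propiconazole on day 30 at 0.50 (limma adjusted p = 0.015) and triadimefon on day 4 at 0.48 (limma adjusted p = 0.033). The propiconazole change minus the phenobarbital change was -0.49 on day 4 (95% interval -0.94 to -0.04, limma adjusted p = 0.26) and -0.15 on day 30 (-0.60 to 0.30). The triadimefon change minus it was -0.27 (-0.72 to 0.18) and -0.36 (-0.81 to 0.09). A difference between compounds in Cyp1a2 was therefore not shown. Propiconazole minus triadimefon gave -0.22 on day 4 (-0.57 to 0.14) and 0.21 on day 30 (-0.15 to 0.56).

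Cyp1a1, whose upstream window is printed above with its core, stayed close to background (probe set 1422217_a_at). On day 4 it read 5.97, 6.40 and 5.61 in conazole controls, 6.39, 6.43 and 6.44 with propiconazole and 6.00, 6.06 and 5.85 with triadimefon. All 3 propiconazole arrays were above background, against 1 of 3 controls and 0 of 3 triadimefon arrays, but 1 control lay within the propiconazole values. The difference was 0.43 ± 0.24 (95% interval -0.07 to 0.92, limma adjusted p = 0.28).

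On day 30 Cyp1a1 read 4.83, 6.32 and 6.05 in conazole controls, 5.44, 5.78 and 5.84 with propiconazole and 5.87, 5.97 and 5.55 with triadimefon. Here no treated array was above background. With phenobarbital its values ran from 6.03 to 6.42 on day 4, against 5.89 to 6.34 in controls, and from 5.84 to 6.46 on day 30, against 5.89 to 6.39. The differences were 0.02 (95% interval -0.37 to 0.40) and -0.01 (-0.39 to 0.38). Near background these intervals bound the change of the signal, not that of the transcript.

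Cyp1b1, the family member made mainly outside the liver, was below background on all conazole arrays with its brightest probe set, 1416612_at. On day 30 its phenobarbital arrays read 5.12, 5.27, 5.78, 4.74 and 4.97, against 6.27, 6.15, 6.02, 5.94 and 6.17 in controls, of which 3 were above background. The treated arrays were all below the controls, where 3.15% of all probe sets had groups that did not overlap. The difference, -0.94 ± 0.30 (95% interval -1.55 to -0.32), did not pass (limma adjusted p = 0.35), and as a bound it is at least 1.02-fold. It passed with the spread of the same experiment (limma adjusted p = 0.041), from only the arrays compared (limma adjusted p = 0.039) and with array weights (limma adjusted p = 0.021). Its other 5 differences, from -0.39 to 0.77, and those of its dimmer probe sets 1432081_at and 1416613_at were not called.

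**Figure D4:**
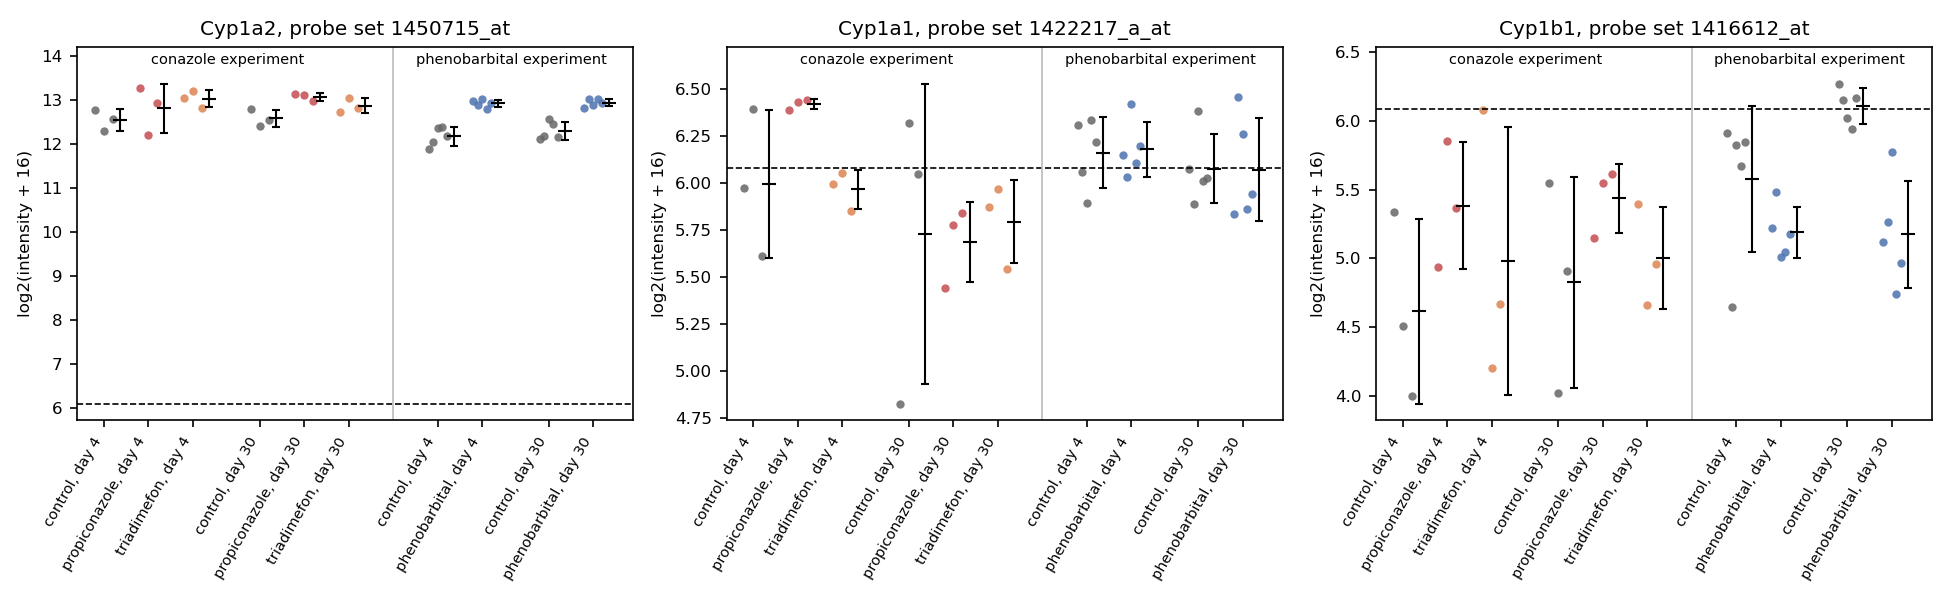
Cyp1a2, Cyp1a1 and Cyp1b1 on each of the 38 arrays (y axis, log2(intensity + 16), with a scale of its own in each panel; x axis, the 10 groups, 3 mice per conazole group and 5 per phenobarbital group). Points are arrays, black bars the mean ± SD and the dashed line the background of 6.08. Cyp1a2 lies between 11.88 and 13.28 on every array and the phenobarbital arrays lie above their controls, while Cyp1a1 scatters around the background and Cyp1b1 mostly below it.

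Other genes of the pathway were counted from 4 lists, with calls from the main fit only. Over all probe sets, propiconazole called 10.8% on day 4 and 7.81% on day 30, triadimefon 2.94% and 3.56%, and phenobarbital 0.447% and 0.324%. Of the chaperones that hold AHR only Hsp90aa1 was measured by a probe set of its own (1 of 4 listed), and it was not called in any of the 6 comparisons. Of 7 coactivators and corepressors, all measured, 1 was lower with propiconazole on day 30, the coactivator Ncoa1 (-0.60 ± 0.18, limma adjusted p = 0.042). Of 8 other partners or relatives of ARNT, 7 were measured and 1 was higher with propiconazole on day 30, Hif3a, a hypoxia-inducible factor subunit (at least 1.74-fold, above background on 3 of 3 treated and 0 of 3 control arrays, limma adjusted p = 0.015). No gene of these 3 lists was called with propiconazole on day 4, with triadimefon or with phenobarbital. With so few genes measured, that says little about the lists.

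The last list held 10 further genes of the AHR battery, of which 6 were measured. Nqo1, a quinone reductase that the oxidative stress factor NRF2 also induces, was higher with propiconazole on day 30 (at least 1.60-fold, above background on 2 of 3 treated and 0 of 3 control arrays, limma adjusted p = 8.3e-04) and with triadimefon on day 4 (at least 1.52-fold, 3 of 3 against 0 of 3, limma adjusted p = 0.012). Gsta2, Nfe2l2, Aldh3a1, Cyp2s1 and Fmo2 were called in none of the 6 comparisons. The summed level of the 6 genes, in which bright genes weigh most, was 4717 to 5062 with propiconazole on day 30. Its controls had 1864 to 2912, where 20.7% of all probe sets had groups that did not overlap. In the other comparisons the sums overlapped those of the controls. The median difference of the 6 genes ran from 0.06 for phenobarbital on day 30 to 0.60 for propiconazole on day 30.

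The genes whose pattern over the arrays was most like a member's, after each array's value had its same-day control mean taken away, were found by Pearson r across 38 arrays among about 8724 genes above background. For Ahr these were the cytochrome P450 gene Cyp2c50 (r = 0.90), Stbd1 (r = 0.90) and Fez2 (r = 0.89). For Cyp1a2 they were Gstm1 (r = 0.92), a glutathione transferase, Atg7 (r = 0.80) and Gstm4 (r = 0.80). For Arnt the nearest was Dnajc8 (r = 0.77), for Tiparp Dlg1 (r = 0.69), for Cyp1b1 Ndrg4 (r = 0.68) and for Cyp1a1 Mrps23 (r = 0.63). Cyp1b1 lay mostly below background and Cyp1a1 close to it, so their r rest on signals near background. The points share experiments, treatments and array quality, so these values are a description.

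The tissue carried the liver's markers: all 6 hepatocyte markers measured, of 7 listed, were above background on all arrays. None of them was called in the 6 comparisons, which called 0.324% to 10.8% of all probe sets tested. In bulk liver fewer cells of a type and less RNA per cell cannot be told apart. With phenobarbital, no gene of the 8 marker lists was called on either day. Phenobarbital called 0.447% of all probe sets on day 4 and 0.324% on day 30, so the absence of a call says little. Propiconazole on day 30, where Ahr and Arnt rose, called 7.81% of all probe sets tested. Of 7 markers of the pericentral zone 3 were lower there: Glul (-0.64), Oat (-1.53) and Axin2 (at least 1.29-fold). The summed level of those 7 was 11752 to 13621, against 15687 to 17257 in controls. Cyp1a2, a gene of the same zone, had a difference of 0.50 there that did not pass (limma adjusted p = 0.077).

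Other marker shifts beside the conazole results were these. Over all probe sets tested, propiconazole called 10.8% on day 4 and 7.81% on day 30, and triadimefon 2.94% and 3.56%. The marker calls, above and below, are from the main fit, with 1 spread from all arrays. With a spread from the same experiment the probe sets called fell from 4642, 3371, 1269 and 1538 to 328, 359, 46 and 70. Whether each marker call held there was not examined. The periportal marker Hal was lower with propiconazole on day 4 (-1.01) and day 30 (-0.84) and with triadimefon on day 30 (-0.75), 1 of 4 measured markers. Of 7 Kupffer cell markers 2 were higher with triadimefon on day 30, Adgre1 (1.13) and Marco (at least 1.42-fold), with summed levels of 4684 to 13955 against 3960 to 5338. Of 7 endothelial markers, Clec4g (-0.82) and Stab2 (-0.66) were lower with triadimefon on day 4, when the sum was 1444 to 2265 against 1950 to 3849, and Lyve1 was higher (1.27) on day 30. Of 7 stellate cell markers, Reln was lower with propiconazole on day 4 (-0.85) and Lrat on day 30 (at least 1.73-fold).

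The bile duct markers Epcam and Sox9, of 4 measured, were higher with propiconazole on day 30 (0.44 and at least 2.32-fold), Epcam on day 4 too (0.38), and Sox9 with triadimefon on day 4 (1.66). None of 5 lymphocyte markers was called. The part of these shifts in the Ahr and Arnt results was not tested.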

How the data were processed

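Liver RNA of 38 mice was measured on Affymetrix mouse arrays, 1 per animal, and groups were taken from the sample titles. Per the labels' protocols, biotin was put on amplified RNA from 4 ug of each extract. The intensities deposited by the authors are linear, and 21.2% of them were below 0. For their summary and scaling, the software is not given in the sources used. Intensities were quantile normalised, values below 0 were set to 0, and log2(intensity + 16) was taken. In R 4.3.3, limma 3.58.1 fitted 1 mean per group to all 38 arrays and 43173 probe sets (64 control and 1864 constant ones left out), with an intensity trend (28 residual and 2.83 prior degrees of freedom). All tests were two-sided: 6 against controls and 11 of other differences. The platform annotation named 34958 probe sets by 1 symbol and 932 by several, and 9211 were unlisted. No symbol was updated. The number of arrays and how far a signal lies over background limit the precision. Where all arrays of a group were below background, the fold is a bound, given as "at least N-fold" against the higher of background and its own value. Named are the 7 genes, the called genes of the other lists, and for each member the genes most like it in pattern. The members and lists were chosen with earlier results of these data known. Other scalings, pseudocounts, a filter, array weights, spreads, a replicate block and left-out arrays were tried, and the steps were tested on simulated data.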

Additional observations from a re-analysis of the deposited data

Results flagged for a closer look

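Within groups of 5, 60 sets of values of the 16 probe sets were tested for 1 array far from the other 4, and 5 were found, while chance gives about 1 in 20 sets. All 5 lie in the phenobarbital experiment, whose groups alone were large enough to test. In phenobarbital controls on day 4, Cyp1b1 (probe set 1416612_at) read 4.64 in replicate 2, against 5.67 to 5.91 in the others, and Arnt (1419996_s_at) read 7.03 in replicate 4, against 7.23 to 7.30. In phenobarbital controls on day 30, Arnt read 6.5 in replicate 2 with 1425064_at, against 6.25 to 6.30, and 8.05 in replicate 5 with 1437042_at, against 8.25 to 8.31. With phenobarbital on day 30, Arnt (1421721_a_at) read 6.92 in replicate 4, against 7.22 to 7.28. The high or low array differed between these probe sets, and none of them carried a call in the phenobarbital comparisons. The Ahr difference between propiconazole and triadimefon on day 4, 0.76 on the log2 scale by the test of the difference itself, also met a limit set for closer reading, and the arrays it depends on are given with it above.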

How the results depend on the processing

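The count of members called moved under these settings. With a spread from the same experiment it was 0 in propiconazole day 30, triadimefon day 4 and triadimefon day 30. From only the arrays compared it was 0 in propiconazole day 4 and both triadimefon comparisons and 1 in propiconazole day 30. With median scaling it was 0 in both triadimefon comparisons. With a filter on dim probe sets it stayed at 3 in propiconazole day 30, with Ahrr filtered out and Cyp1a2 called. It rose from 2 to 3 in phenobarbital day 4 with array weights (Tiparp, lower), and in phenobarbital day 30 with array weights, a spread from the same experiment and only the arrays compared (Cyp1b1, lower). With 1 array left out it ran from 1 to 2 in propiconazole day 4, 2 to 4 in propiconazole day 30, 0 to 2 in triadimefon day 4 and day 30, 2 in phenobarbital day 4 and 1 to 2 in phenobarbital day 30. The difference between conazoles, with 1 probe set called, had 2 with the values as deposited and 0 to 2 with 1 array left out. The 9 other differences, with 0 called, gave 0 to 1 for untreated liver, 0 to 1 for day 30 minus day 4 and 0 to 3 for conazole minus phenobarbital. The number of probe sets called, in the order propiconazole, triadimefon and phenobarbital, each on day 4 then day 30, was 4642, 3371, 1269, 1538, 193 and 140. It became 328, 359, 46, 70, 1127 and 427 with a spread from the same experiment, 7, 779, 6, 113, 425 and 368 from only the arrays compared, and 2463, 1917, 665, 958, 120 and 85 with 1 probe set per gene. Array weights gave 253 for propiconazole day 4 and 1281 and 838 for phenobarbital. The values as deposited gave 2067, 2678 and 784 for propiconazole day 30, triadimefon day 4 and triadimefon day 30. With 1 array left out the ranges were 2829 to 7660, 2267 to 5150, 470 to 2464, 899 to 2872, 102 to 399 and 83 to 193. With the values as deposited the median of all probe sets moved to -0.13 for propiconazole day 4 and 0.11 for triadimefon day 4, and 8.67% and 90.2% of the called probe sets were higher, against 49.98% and 55.2%. With array weights 56.5% and 54.9% of the phenobarbital calls were higher on day 4 and day 30, against 69.9% and 79.3%. The Arnt difference for propiconazole day 30 reversed, to -2.31, with probe set 1419996_s_at. With a replicate block the probe sets called were 4216, 3054, 1052, 1289, 164 and 121, and no count of members moved. Deviations of same-numbered arrays correlated above 0.1 in at most 1 pair of a comparison, so the numbers are no pairing. Of 463 values of single member changes under other settings, 442 kept their side of the threshold, 16 lost a call and 5 gained one. Of 349 with 1 array left out these numbers were 326, 19 and 4. The sign turned in 12 of the 463, for 7 changes of at most 0.25 in size, and in 37 of the 349, for 17 changes of at most 0.37. Of these, 0 were called with either sign. The 2 dimmest genes were below background on nearly all arrays, so Ahrr has no fold and Cyp1b1 only a bound.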
